A study of Mus musculus with 6 samples.

Results

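Cholesterol synthesis, uptake and efflux genes were compared in liver RNA of wild-type and liver-specific *Tcf7l2*-knockout mice. The 33 genes were taken by symbol from the 23282 genes of the count files and fall into 19 genes of synthesis, 5 of uptake and intracellular transport, and 9 of efflux, esterification and oxysterol sensing. All 33 passed the filter on low counts. The 3 wild-type mice carried *Tcf7l2* alleles floxed at exon 5 without Cre (*Tcf7l2 f/f*), and the 3 knockout mice carried the same floxed alleles with Cre under the albumin (*Alb*) promoter, a hepatocyte promoter (*Alb-Cre;Tcf7l2 f/f*). The mice were of the C57BL/6 strain and 12 weeks old by the labels. Wild-type and knockout mice were littermates by the study's methods. All were fasted for 24 h and then refed normal chow for 24 h, so no fasted or continuously fed liver stands beside them. Libraries are named by the numbers in their labels, which are 7-2, 8-1 and 8-3 for wild type and 7-2, 7-3 and 8-3 for knockout.

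The liver makes cholesterol from acetyl-CoA in the mevalonate pathway, takes it up from lipoproteins, stores it as cholesteryl ester and exports it to HDL and bile. When sterol in the endoplasmic reticulum is low, the transcription factor SREBP2, encoded by *Srebf2*, is cleaved and switches on nearly every enzyme gene of the pathway. When oxysterols rise, the nuclear receptors LXRα and LXRβ, encoded by *Nr1h3* and *Nr1h2*, switch on export genes such as *Abca1* and *Abcg5*. SREBP1c, a product of *Srebf1*, mainly drives fatty acid synthesis.

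The 6 libraries held 60619938 to 133384586 counts, and the 10 most abundant genes took 25.01% to 55.2% of them, with the highest share in wild-type 8-1. Values below are normalised read counts (CPM), each count divided by its library's total after that total was multiplied by a trimmed-mean (TMM) factor. The factors ran from 0.63 in wild-type 8-1 to 1.40 in knockout 7-2. *Tcf7l2* stood at 4.88, 6.13 and 6.85 CPM in wild-type and at 3.31, 2.74 and 3.33 CPM in knockout libraries (log2 fold change −0.93 with SE 0.19, edgeR adjusted *p*=0.0856 and 0.00274 from DESeq2), so the groups did not overlap and the transcript, counted over the whole gene and not over exon 5 alone, was still present. Summed hepatocyte markers such as *Alb* and *Ttr* ran from 59924 to 63560 CPM in wild-type and from 52144 to 74847 CPM in knockout liver. Log2 fold changes of sinusoidal endothelial markers were above 0 in 8 of 8 genes (summed 58.6 to 62.1 against 69.0 to 78.3 CPM). Of 8 stellate cell markers, 5 were above 0 (summed 49.5 to 59.7 against 72.8 to 80.3 CPM), and of 10 Kupffer cell markers 9 were below 0 (summed 86.7 to 106 against 71.6 to 87.4 CPM). Cholangiocyte, lymphocyte and neutrophil marker sums overlapped between the genotypes, with 5 of 6, 3 of 6 and 4 of 5 genes tested. No marker of the 7 lists was called by edgeR, and before adjustment 6 were higher and 3 lower (*p* under 0.05), against 6.7% and 6.76% of all genes. DESeq2 called 2 stellate cell markers higher, against 1.48% of the genes it tested. In whole liver, fewer cells of a type and less RNA per cell cannot be told apart, and the part of these markers in the values below was not tested.

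Most genes of cholesterol synthesis had a lower mean in knockout than in wild-type liver, from HMG-CoA synthase to the last sterol reductions. Of 19 genes, 17 had a fold change below 0, and their median log2 value was −0.57, against −0.017 over the 14076 genes tested. None of the 19 passed edgeR's quasi-likelihood test after adjustment over all genes (adjusted *p* from 0.127 to 0.823), where 0.377% of all genes were called lower and 0.071% higher. At an unadjusted *p* under 0.05, 10 of the 19 were lower and 0 higher, against 6.76% and 6.7% of all genes. DESeq2 called 4 of the 19 lower and 0 higher at an adjusted *p* under 0.05, against 1.78% and 1.48% of the genes it tested. In 5 of the 19 every knockout value lay below every wild-type value and in 0 above, which held for 9.08% and 10.2% of all genes. With library sizes alone, without TMM factors, the median of all genes moved to 0.61 and that of synthesis to 0.11, with 6 of 19 below 0. Below the median of all genes lay 17 of 19, a count that could hardly change because scaling moves all genes by nearly the same amount.

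**Figure D1:**
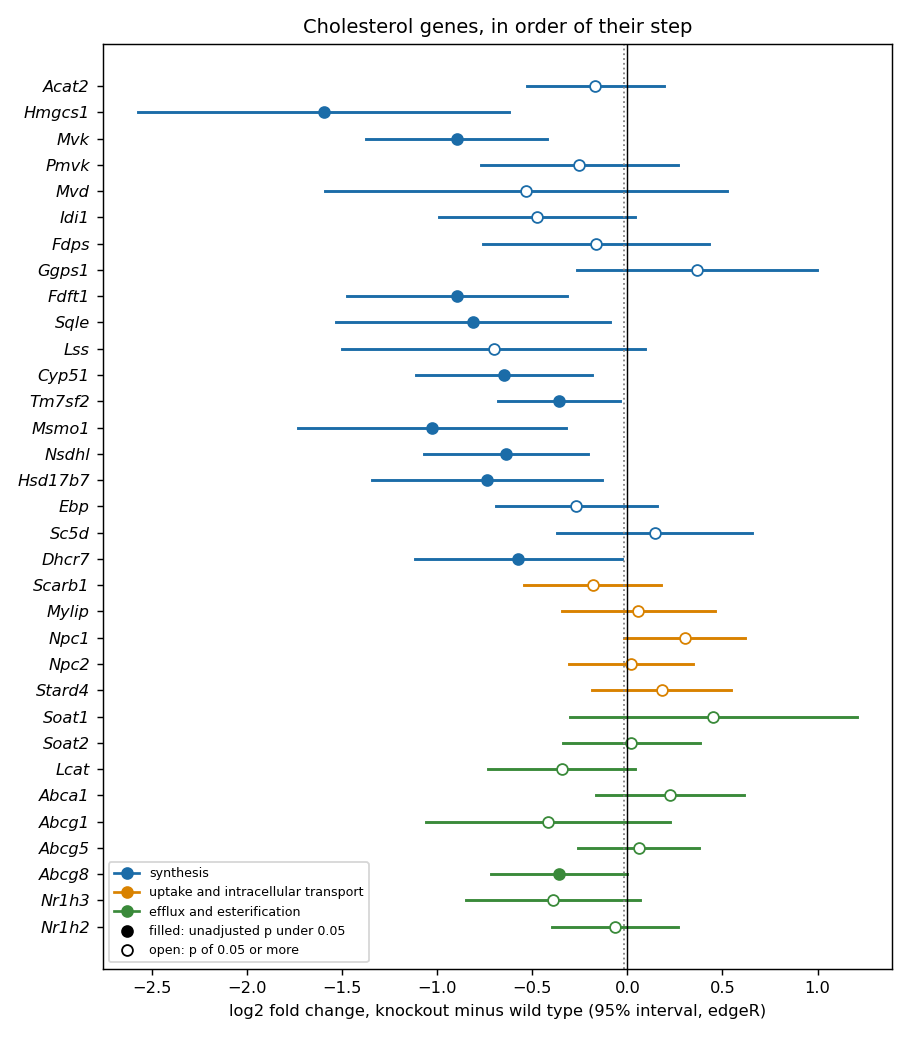
Log2 fold change of each of the 33 genes, knockout minus wild type, with its 95% interval from edgeR's fit (horizontal axis), in the order of the steps (vertical axis); filled points have an unadjusted p under 0.05 and the dotted line is the median of all genes tested. Of the 19 synthesis genes 17 lie left of 0, led by *Hmgcs1* at −1.60, while uptake and efflux genes lie on both sides of 0; with library sizes alone 6 of the 19 stay left of 0.

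Promoter sequence was not used to choose the genes, and 5 promoters are shown. *Mvk*, *Msmo1* and *Nsdhl* are the genes called by DESeq2 that have a window, *Hmgcs1* had the largest fold change, and *Sc5d* had a value near 0. RefSeq windows of 300 bases, 250 before and 50 after a transcript's start in GRCm38.p6, were found for 16 of the 19 synthesis genes. The CCAAT box (CCAAT on either strand), which NF-Y binds next to SREBP on many sterol genes, was present in 15 of the 16, all but *Acat2*, and in 37.4% of all 32851 windows. Genes with several windows were counted if any held it, and counted so, 41.1% of all 27025 genes did. It was also present in 2 of 2 uptake genes and 4 of 7 efflux genes with a window. The sterol regulatory element, searched as TCACNCCAC on both strands, was present in 1 of the 16 (*Hmgcs1*, from base −137), in 1.24% of all windows and in 1.44% of all genes. The TCF/LEF core CTTTGAT on either strand was present in 0 of the 16 and in *Npc2* alone among the 25 members with a window. It was present in 3.73% of all windows and 4.29% of all genes. A match is not a binding site, and other spellings were not searched. Capitals mark the searched motifs, which do not overlap each other here, in lower-case sequence written from 5′ to 3′ along the gene.
Hmgcs1, chr13:119690101-119690400, plus strand: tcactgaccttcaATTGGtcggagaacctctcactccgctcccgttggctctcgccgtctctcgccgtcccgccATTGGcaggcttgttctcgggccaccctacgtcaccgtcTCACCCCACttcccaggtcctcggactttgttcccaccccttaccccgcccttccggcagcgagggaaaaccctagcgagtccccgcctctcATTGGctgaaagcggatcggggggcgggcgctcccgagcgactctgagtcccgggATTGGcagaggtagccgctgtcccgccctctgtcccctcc
Mvk, chr5:114444019-114444318, plus strand: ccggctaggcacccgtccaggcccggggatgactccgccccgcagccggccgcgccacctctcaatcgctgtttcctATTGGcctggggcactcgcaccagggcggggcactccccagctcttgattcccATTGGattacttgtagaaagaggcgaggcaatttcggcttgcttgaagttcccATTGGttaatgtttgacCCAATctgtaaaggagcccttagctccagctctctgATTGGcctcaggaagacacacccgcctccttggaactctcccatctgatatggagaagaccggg
Msmo1, chr8:64733529-64733828, minus strand: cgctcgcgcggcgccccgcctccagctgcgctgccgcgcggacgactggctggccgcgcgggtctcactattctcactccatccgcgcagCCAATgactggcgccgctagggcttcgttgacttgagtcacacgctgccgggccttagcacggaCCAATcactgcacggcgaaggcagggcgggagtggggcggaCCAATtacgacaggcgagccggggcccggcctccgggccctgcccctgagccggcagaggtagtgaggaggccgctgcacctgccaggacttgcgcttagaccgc
Nsdhl, chrX:72918271-72918570, plus strand: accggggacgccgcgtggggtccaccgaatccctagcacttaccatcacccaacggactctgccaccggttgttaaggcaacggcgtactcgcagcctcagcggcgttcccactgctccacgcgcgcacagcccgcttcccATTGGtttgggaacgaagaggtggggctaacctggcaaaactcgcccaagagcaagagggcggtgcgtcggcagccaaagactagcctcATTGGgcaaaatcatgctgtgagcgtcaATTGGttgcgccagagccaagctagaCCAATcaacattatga
Sc5d, chr9:42264251-42264550, minus strand: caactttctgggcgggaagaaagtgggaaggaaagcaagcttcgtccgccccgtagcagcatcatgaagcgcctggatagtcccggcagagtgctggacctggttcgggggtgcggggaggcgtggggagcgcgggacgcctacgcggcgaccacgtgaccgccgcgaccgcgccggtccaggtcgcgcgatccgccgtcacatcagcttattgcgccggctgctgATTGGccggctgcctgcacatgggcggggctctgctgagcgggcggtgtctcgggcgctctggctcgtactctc

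In the windows shown, *Mvk* held 5 CCAAT boxes, *Hmgcs1* and *Nsdhl* 4 each, *Msmo1* 3 and *Sc5d* 1. *Ggps1* and *Idi1*, whose unadjusted *p* from edgeR was above 0.05, held the box as well. *Ggps1*, with a fold change above 0, held it from bases −201, −160 and −55. *Lss*, *Cyp51* and *Tm7sf2*, with fold changes below 0, held it only from bases −62, −29 and −47, in that order. Whether the number of boxes goes with the fold change was not tested.

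The enzymes that lead to mevalonate and activate it were uneven. *Acat2*, the cytosolic thiolase that joins acetyl-CoA units, stood at 78.8, 66.9 and 85.1 CPM in wild-type and 76.2, 68.6 and 60.6 CPM in knockout liver, with overlapping groups and a log2 fold change of −0.17 (95% interval −0.53 to 0.19). *Hmgcs1*, the cytosolic HMG-CoA synthase (NM_145942; chromosome 13, 119690351 to 119708260 of GRCm38.p6), stood at 133, 341 and 304 CPM in wild-type libraries 7-2, 8-1 and 8-3 and at 145, 60.7 and 51.7 CPM in knockout libraries 7-2, 7-3 and 8-3. Its groups overlapped only because wild-type 7-2 lay below knockout 7-2, and its fold change was the largest of the 33 (−1.60, SE 0.44, adjusted *p*=0.167 from edgeR and 0.146 from DESeq2). *Mvk*, mevalonate kinase (NM_023556; chromosome 5, 114444264 to 114460591), stood at 21.0, 20.0 and 28.0 CPM in wild-type and at 16.2, 10.97 and 9.90 CPM in knockout liver. All its knockout values lay below all wild-type values (log2 fold change −0.90 with SE 0.21, edgeR adjusted *p*=0.127 and 0.00623 from DESeq2). *Pmvk*, phosphomevalonate kinase, had −0.25 (adjusted *p*=0.653 from edgeR), with wild-type values from 33.4 to 50.2 CPM and knockout values from 26.1 to 46.4 CPM. *Mvd*, mevalonate diphosphate decarboxylase, which the files list under a non-coding transcript record (NR_028354), was the most uneven, at 7.52, 13.3 and 18.55 CPM in wild-type and 17.02, 5.52 and 4.68 CPM in knockout liver (−0.53, SE 0.47).

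The isoprenoid steps and the branch point came next. *Idi1*, isopentenyl diphosphate isomerase, had −0.48 (95% interval −0.99 to 0.04), and *Fdps*, farnesyl diphosphate synthase, −0.16 (95% interval −0.76 to 0.43). Per kilobase of transcript, with lengths of GENCODE canonical transcripts, *Fdps* had the highest level of the 33 genes in wild-type liver (333 ± 43.2 CPM per kb, mean ± SD, *n*=3), above *Ebp* (102 ± 16.1), *Lcat* (99.5 ± 12.7) and *Idi1* (88.0 ± 22.2), whose levels lay within 1 SD of each other. *Ggps1*, geranylgeranyl diphosphate synthase, leads away from sterols towards protein prenylation and was 1 of the 2 synthesis genes above 0 (0.37, SE 0.28, adjusted *p*=0.595 from edgeR), at 1.49 to 2.72 CPM in wild-type and 2.03 to 2.92 CPM in knockout liver.

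The enzymes that commit farnesyl units to sterols and close the ring were lower on average in knockout liver. *Fdft1*, squalene synthase (NM_010191; chromosome 14, 63145150 to 63181687), stood at 187, 229 and 285 CPM in wild-type and 170, 119 and 87.1 CPM in knockout liver. Its groups did not overlap (log2 fold change −0.90 with SE 0.26, edgeR adjusted *p*=0.185 and 0.013 from DESeq2). Its span shares 774 bases in the RefSeq annotation with that of *Ctsb*, a lysosomal protease gene, and whether counting used the strand is not given in the sources used here. Spans of other members overlap non-coding genes, among them *Lss* (11269 bases with *4930483K19Rik*), *Scarb1* (8226 with *Gm32701*) and *Mvd* (3213 with *Gm51557*). *Sqle*, squalene epoxidase, stood at 40.2, 74.1 and 78.5 CPM in wild-type and 53.9, 32.3 and 23.7 CPM in knockout liver (−0.81, SE 0.32, adjusted *p*=0.32 from edgeR). *Lss*, lanosterol synthase, stood at 32.0, 93.3 and 71.2 against 51.5, 42.2 and 27.1 CPM (−0.70, SE 0.36, adjusted *p*=0.423). In both genes wild-type 7-2 lay below knockout 7-2, and the groups overlapped.

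Among the enzymes that turn lanosterol into cholesterol, the enzymes that strip the extra methyl groups were *Cyp51*, *Msmo1*, *Nsdhl* and *Hsd17b7*. *Cyp51*, the lanosterol demethylase, stood at 138, 210 and 191 CPM in wild-type and 136, 113 and 96.0 CPM in knockout liver, just apart between wild-type 7-2 and knockout 7-2 (log2 fold change −0.65 with SE 0.21, edgeR adjusted *p*=0.223 and 0.0504 from DESeq2). *Msmo1*, the methylsterol monooxygenase (NM_025436; chromosome 8, 64718123 to 64733578), stood at 70.2, 166 and 148 CPM in wild-type and 80.0, 62.7 and 45.7 CPM in knockout liver (−1.03, SE 0.31, adjusted *p*=0.206 from edgeR and 0.017 from DESeq2). *Nsdhl*, the sterol dehydrogenase that acts after it (NM_010941; chromosome X, 72918521 to 72958528), stood at 65.1, 92.9 and 88.4 CPM in wild-type and 54.5, 60.7 and 43.0 CPM in knockout liver, with the groups apart (−0.64, SE 0.19, adjusted *p*=0.203 from edgeR and 0.0486 from DESeq2). *Hsd17b7*, the ketosteroid reductase of the same demethylation complex, had −0.74 (SE 0.27, adjusted *p*=0.282 from edgeR). *Mvk*, *Fdft1*, *Msmo1* and *Nsdhl* were the 4 genes that DESeq2 called.

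The remaining sterol enzymes ranged from lower to near 0. *Dhcr7*, dehydrocholesterol reductase, the enzyme of the last step of one route to cholesterol, had −0.57 (SE 0.24, adjusted *p*=0.349), at 56.6, 87.7 and 94.3 CPM in wild-type and 67.7, 53.3 and 39.4 CPM in knockout liver. *Tm7sf2*, a sterol reductase, differed by less but was even within groups, at 28.7, 24.7 and 31.6 against 22.8, 22.2 and 21.2 CPM, and its groups did not overlap (−0.36, SE 0.14, adjusted *p*=0.318). *Ebp*, the sterol isomerase, had −0.27 (95% interval −0.69 to 0.16). *Sc5d*, the lathosterol desaturase, was the other gene above 0, at 186, 281 and 274 CPM in wild-type and 342, 258 and 218 CPM in knockout liver (0.14, 95% interval −0.37 to 0.66).

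**Figure D2:**
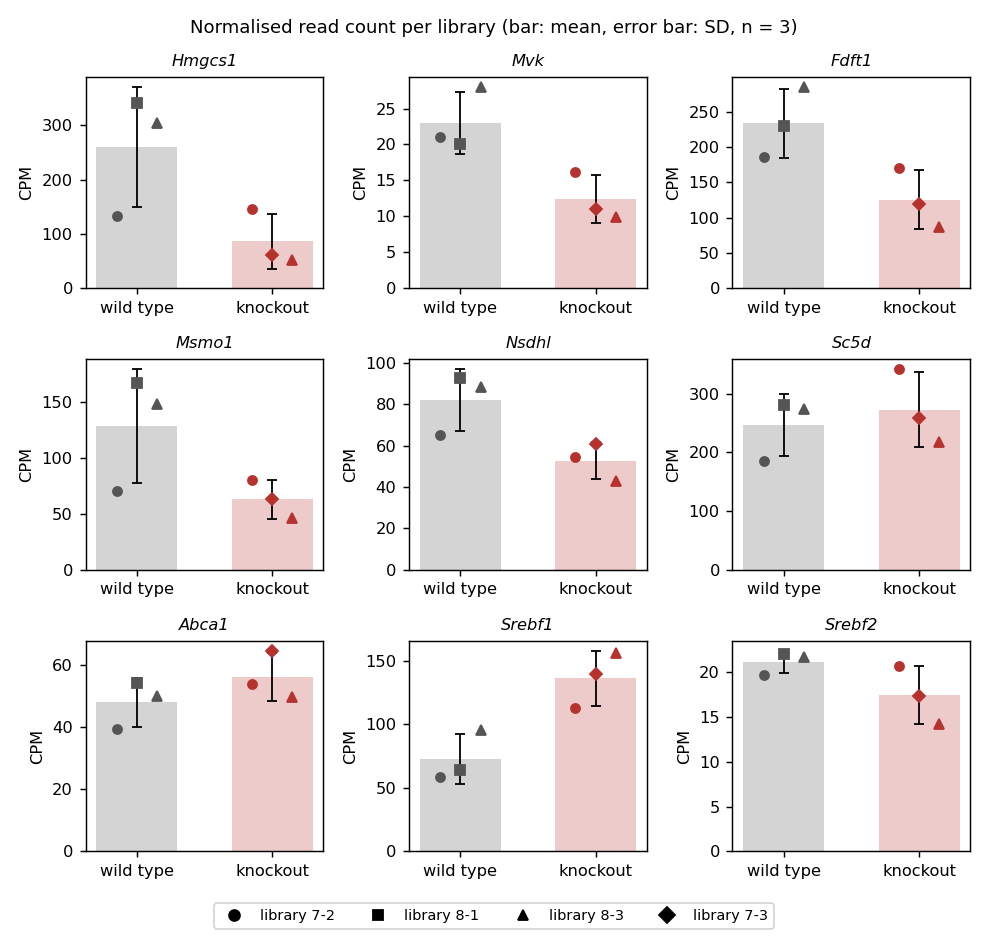
Normalised read count (CPM, vertical axis) of 6 synthesis genes, *Abca1*, *Srebf1* and *Srebf2* in each wild-type (grey) and knockout (red) library, with bars at the mean and error bars of 1 SD (n = 3); marker shapes give the label number. In *Hmgcs1* and *Msmo1* wild-type 7-2 lies far below wild-type 8-1 and 8-3 and close to knockout 7-2, while *Srebf1* lies higher in each knockout library than in each wild-type library.

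The synthesis genes moved together from library to library within each genotype, and this spread was of the same size as the difference between genotypes. Against the wild-type mean on the log2 scale, the median of the 19 genes was −0.36, 0.21 and 0.18 in wild-type 7-2, 8-1 and 8-3, and −0.20, −0.54 and −0.92 in knockout 7-2, 7-3 and 8-3. Wild-type 7-2 was the lowest wild-type library in 15 of 19 genes, and knockout 7-2 the highest knockout library in 16. Knockout 7-2 lay above wild-type 7-2 in 12 of 19 genes. Knockout 8-3 was the lowest knockout library in 18 of 19 genes and lay below wild-type 8-1 and 8-3 in 18. The medians of all tested genes in the 6 libraries lay between −0.0013 and 0.014, near 0 by the construction of TMM scaling, so these shifts are relative to all genes.

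**Figure D3:**
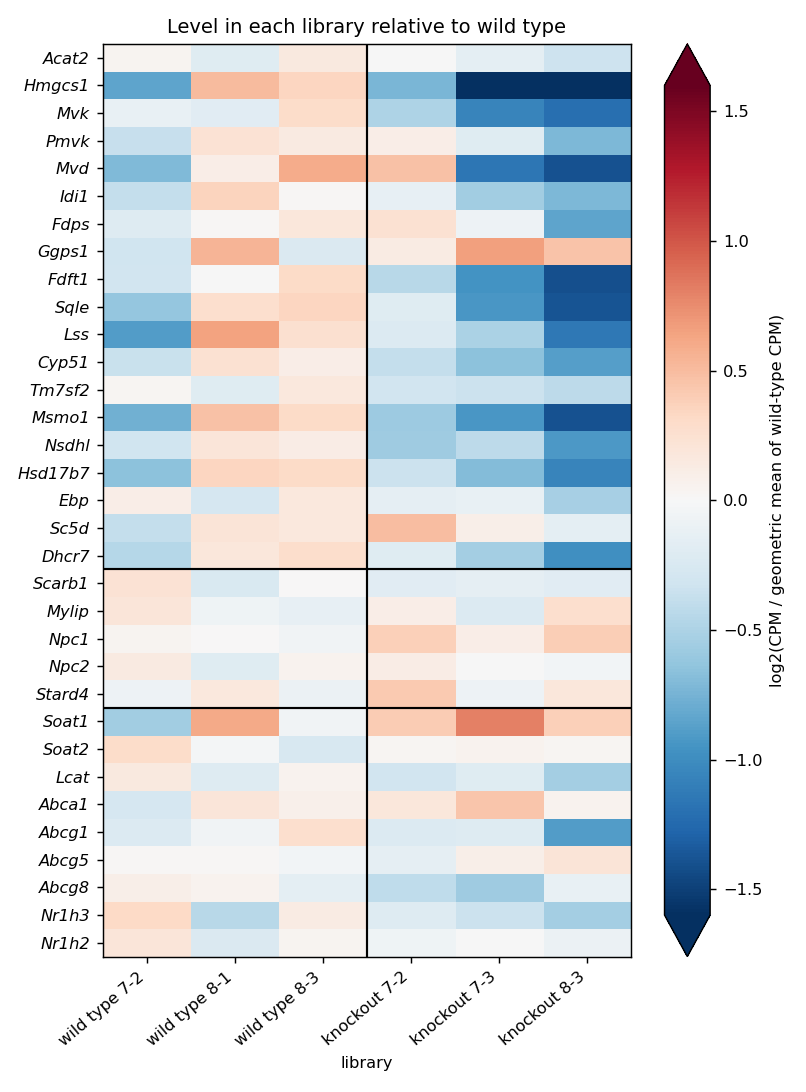
Log2 ratio of the CPM in each library (columns) to the geometric mean of the 3 wild-type libraries for the 33 genes (rows), with lines between synthesis, uptake and intracellular transport, and efflux and esterification, and a vertical line between genotypes; colours saturate at 1.6. The synthesis block is pale to blue in wild-type 7-2 and darkest in knockout 8-3, while the 2 lower blocks have no such gradient.

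The difference in synthesis genes depended on which libraries were compared. With each library left out in turn, the median of the 19 fold changes ran from −0.39 without knockout 8-3 to −0.78 without wild-type 7-2, and 16 to 18 of the 19 stayed below 0. Between libraries whose labels begin with 8 (2 wild-type and 1 knockout) the median was −1.08, with 18 of 19 genes below 0. Between those that begin with 7 (1 wild-type and 2 knockout) it was 0.040, with 8 of 19 below 0, against −0.015 and −0.0027 over all genes. What the leading number stands for is not given in the labels, and neither comparison has enough libraries for a test of its own. With the leading number as a replicate block in edgeR, 6 of the 19 had a lower value at an unadjusted *p* under 0.05 in place of 10, against 7.54% of all genes. *Msmo1* (unadjusted *p*=0.0526 from edgeR), *Sqle* (0.0887), *Hsd17b7* (0.0952) and *Dhcr7* (0.0954) no longer did. *Hmgcs1*, *Mvk*, *Fdft1*, *Cyp51*, *Msmo1* and *Nsdhl* had an unadjusted *p* under 0.05 from edgeR in all 6 fits with a library left out, and *Sqle*, *Lss*, *Hsd17b7*, *Idi1* and *Dhcr7* in 2 fits each. *Tm7sf2*, *Mvd* and *Ggps1* had it in 1 fit each, *Ggps1* with a higher value in knockout. In a single such fit 4.16% to 8.25% of all genes were lower at that threshold. These fits share most of their libraries, and the share of all genes that passed in all 6 was not counted. The smallest adjusted *p* of any member was 0.0501 (*Msmo1*, without wild-type 7-2).

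**Figure D4:**
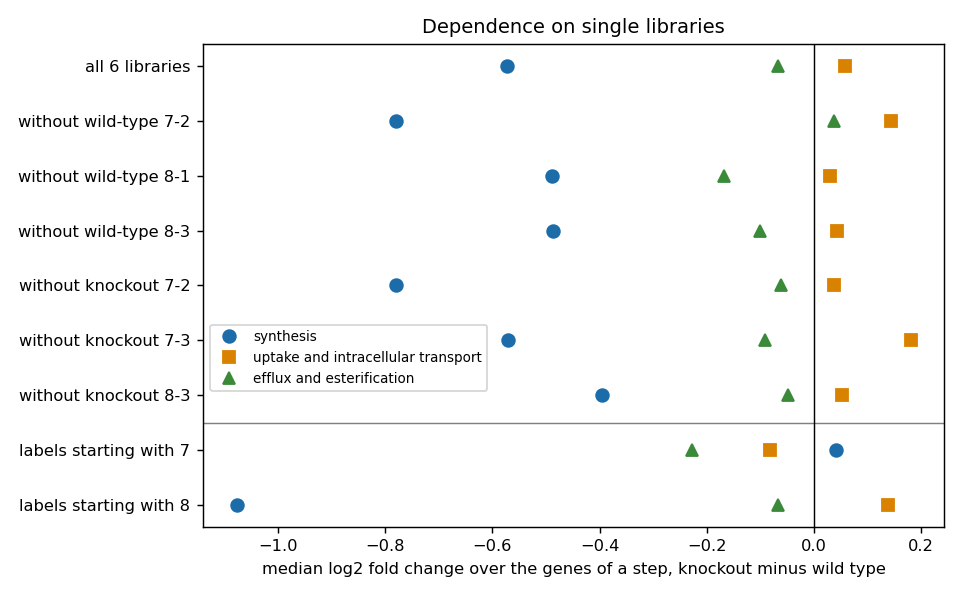
Median log2 fold change, knockout minus wild type (horizontal axis), of the genes of synthesis (circles), uptake and intracellular transport (squares) and efflux and esterification (triangles), with all libraries, with each library left out, and within libraries whose labels begin with the same number (rows). The synthesis median stays between −0.39 and −0.78 with 1 library left out, but is 0.040 among the libraries starting with 7 and −1.08 among those starting with 8.

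Genes of uptake and intracellular transport differed little, with a median log2 fold change of 0.058 over 5 genes. Of these, 0 were called by edgeR or DESeq2, and 0 had an unadjusted *p* under 0.05 from edgeR, where 6.7% of all genes were higher and 6.76% lower. *Scarb1*, the HDL receptor that takes up cholesteryl ester, stood at 92.4, 66.4 and 79.3 CPM in wild-type and at 69.1, 71.4 and 69.3 CPM in knockout liver (−0.18, 95% interval −0.54 to 0.18). *Mylip*, an LXR-induced ubiquitin ligase that removes lipoprotein receptors, had 0.058 (95% interval −0.34 to 0.46). *Npc1*, the membrane protein that carries cholesterol out of lysosomes, stood at 31.5, 30.7 and 29.3 CPM in wild-type and at 39.8, 32.9 and 40.2 CPM in knockout liver. It was the only member with every knockout value above every wild-type value (0.30, SE 0.14, adjusted *p*=0.392 from edgeR), which held for 10.2% of all genes. *Npc1* shares 8982 bases of its span with *Rmc1*. The soluble partner of *Npc1*, *Npc2*, which hands cholesterol to it, had 0.020 (95% interval −0.31 to 0.35). *Stard4*, a cytosolic sterol carrier and SREBP2 target, stood at 18.2, 21.6 and 17.9 against 25.5, 18.2 and 21.6 CPM (0.18, 95% interval −0.19 to 0.55).

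Among genes of efflux, esterification and oxysterol sensing the median was −0.067 over 9 genes, with 5 below 0 and 4 above, and 0 called by edgeR or DESeq2. At an unadjusted *p* under 0.05 from edgeR, 1 was lower and 0 higher, against 6.76% and 6.7% of all genes. With library sizes alone the medians of the uptake and efflux genes were 0.68 and 0.53, beside 0.61 for all genes. *Soat2*, the acyltransferase that makes cholesteryl ester in hepatocytes, was the most even in knockout liver (13.85, 13.99 and 13.8 CPM, against 16.5, 13.2 and 11.3 CPM in wild type). *Soat1*, the form of macrophages and many other cells, stood at 0.602 to 1.35 CPM in wild-type and 1.15 to 1.54 CPM in knockout liver (0.45, 95% interval −0.30 to 1.21). Per kilobase, wild-type *Soat2* was at 5.77 ± 1.11 and *Soat1* at 0.112 ± 0.0455 CPM per kb. *Lcat*, the plasma enzyme that esterifies cholesterol on HDL, stood at 189, 147 and 177 CPM in wild-type and 138, 149 and 117 CPM in knockout liver (−0.35, SE 0.17, adjusted *p*=0.417 from edgeR).

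Fold changes of the exporters lay on both sides of 0. *Abca1*, which loads cholesterol onto nascent HDL, stood at 39.3, 54.3 and 50.1 CPM in wild-type and 53.9, 64.6 and 49.5 CPM in knockout liver (0.23, 95% interval −0.16 to 0.62), and *Abcg1*, which loads mature HDL, at 1.28 to 1.79 against 0.801 to 1.29 CPM (−0.42, 95% interval −1.06 to 0.22). *Abcg5* and *Abcg8* encode the partner subunits of the transporter that secretes sterols into bile and lie head to head on chromosome 17, with spans that share 6710 bases. *Abcg5* stood at 24.6, 24.75 and 23.65 CPM in wild-type and 22.0, 25.9 and 28.1 CPM in knockout liver (0.059, 95% interval −0.26 to 0.38). *Abcg8* stood at 28.8, 27.9 and 24.1 against 20.2, 18.03 and 24.8 CPM, with an unadjusted *p*=0.0498 and an adjusted *p*=0.371 from edgeR (−0.36, SE 0.16). The difference between the 2 fold changes was not tested. Per kilobase in wild-type liver, the 2 genes differed by less than the SD of *Abcg8* (7.70 ± 0.190 and 7.15 ± 0.653 CPM per kb). Of the receptors, *Nr1h3* stood at 72.6, 42.9 and 63.8 against 50.7, 45.9 and 40.1 CPM (−0.39, SE 0.20, adjusted *p*=0.438) and *Nr1h2* had −0.067 (95% interval −0.40 to 0.26).

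Other genes of the pathway gave few differences. Of 7 genes that control SREBP, 4 were above 0 and edgeR called 0. Before adjustment 1 gene was higher (edgeR *p* under 0.05), against 6.7% of all genes. *Srebf1*, higher, was the single call of DESeq2, against 1.48% of the genes it tested. *Srebf2* stood at 19.7, 22.0 and 21.7 CPM in wild-type and 20.7, 17.3 and 14.2 CPM in knockout liver (−0.28, SE 0.16, adjusted *p*=0.48 from edgeR and 0.538 from DESeq2), overlapping through knockout 7-2. *Srebf1* stood at 58.5, 64.3 and 95.4 against 113, 139 and 156 CPM (0.90, SE 0.22, adjusted *p*=0.132 from edgeR and 0.00274 from DESeq2). In knockout liver its order over libraries was the reverse of that of *Srebf2*, with the highest value in 8-3. *Insig2*, which retains SREBP in the endoplasmic reticulum, had −0.37 (adjusted *p*=0.401 from edgeR). Its knockout values all lay below its wild-type values, which held for 9.08% of all genes.

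Of 10 genes of mevalonate branches, 5 were below 0 and 0 were called by edgeR or DESeq2. Before adjustment 1 was higher and 1 lower (edgeR *p* under 0.05), against 6.7% and 6.76% of all genes. *Dhdds*, for dolichol synthesis, had −0.39 (adjusted *p*=0.288), *Aacs*, which activates acetoacetate for sterol synthesis, 0.79 (adjusted *p*=0.351, with knockout 7-2 at 76.6 CPM and the other libraries from 22.7 to 34.1 CPM) and *Acat1*, the mitochondrial thiolase, 0.26 (adjusted *p*=0.479). Of 8 further uptake and lysosomal genes, 7 were above 0 and 0 were called by edgeR or DESeq2. At an unadjusted *p* under 0.05 from edgeR 1 was lower, against 6.76% of all genes. *Vldlr*, a lipoprotein receptor with low expression in liver, had 14, 31 and 19 counts in wild-type and 5, 3 and 3 counts in knockout libraries (−2.65, SE 0.54, adjusted *p*=0.0856 from edgeR). DESeq2 gave *Vldlr* no adjusted *p* and so could not call it (unadjusted *p*=0.000724 from DESeq2). *Lrp1*, a large endocytic receptor, had 0.37 (adjusted *p*=0.388) and *Scp2*, a sterol carrier, 0.34 (adjusted *p*=0.482). Of 7 further HDL and LXR genes, 4 were above 0 and 0 were called by edgeR or DESeq2 or had an unadjusted *p* under 0.05, with *Nceh1* at 0.42, *Pltp* at 0.41 and *Smpdl3a* at 0.29 (adjusted *p* from 0.479 to 0.523).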

How the data were processed

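Liver RNA of 3 wild-type and 3 knockout mice was sequenced with a directional library kit, with 1 mouse assumed per library from the study's methods. Raw counts per gene were deposited, for which Bedtools counted uniquely and multiply aligned reads. The authors' quantile normalisation is not in these values. The submitters' processing notes list mm10 and TopHat. Its version and the gene models counted were not given in the sources used here.

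Counts were tested with edgeR 4.0.16 (limma 3.58.1, R 4.3.3): filterByExpr (min.count 10, min.total.count 15), TMM factors, quasi-likelihood test of knockout against wild type, and Benjamini-Hochberg adjustment over the 14076 genes kept of 23282, with calls under 0.05. The biological coefficient of variation was 23.9%, and depth was 60619938 to 133384586 counts. CPM use TMM-scaled library sizes. DESeq2 1.42.0 gave an adjusted *p* for 13513 genes. With 3 mice against 3 an exact permutation test cannot go below 0.1 and was not used. No 2 libraries were copies (smallest chi-square per degree of freedom 188). The edgeR, DESeq2 and limma-voom fits were tested on simulated data.

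Members and lists were chosen with earlier results of these data known. All 33 members are reported, with *Srebf1*, *Srebf2* and up to 3 genes of the smallest *p* of each further list (SREBP control, mevalonate branches, uptake and lysosomal genes, HDL and LXR genes). Marker lists were those of hepatocytes, Kupffer cells, sinusoidal endothelium, stellate cells, cholangiocytes, lymphocytes and neutrophils. Positions, overlaps and promoters are from RefSeq on GRCm38.p6, the assembly of mm10. The accessions of all 33 genes matched, 25 genes had a promoter window, and the end of the window lay in the sense strand of a GENCODE vM39 transcript of the gene for 24 of them. Canonical transcript lengths were taken from GENCODE vM39, which may differ from the models counted. Alternatives were other scalings and tests, no filter, each library left out and replicate blocks.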

Additional observations from a re-analysis of the deposited data

How the results depend on the processing

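The sign of the synthesis fold changes depended on scaling between libraries. Relative to the median of all genes, 17 of 19 lay below both with TMM factors and with library sizes alone. A change of scaling moves all genes by nearly the same amount. This count could therefore hardly change and is no separate support. With library sizes alone, 3024 of 14076 genes were called (2936 higher), and 5 of the 33 members were called higher. Before adjustment (*p* under 0.05), 10 members were higher and 1 was lower, where 0.938% of all genes were lower. The share of all genes higher before adjustment was not counted for this or the other alternative fits. The medians under this scaling were 0.11 for synthesis, 0.68 for uptake and 0.53 for efflux, where the median of all genes was 0.61. Under it 17 genes turned from below to above 0, namely *Acat2* 0.44, *Pmvk* 0.43, *Mvd* 0.20, *Idi1* 0.22, *Fdps* 0.49, *Lss* 0.034, *Cyp51* 0.028, *Tm7sf2* 0.25, *Nsdhl* 0.013, *Ebp* 0.33, *Dhcr7* 0.11, *Scarb1* 0.41, *Lcat* 0.25, *Abcg1* 0.22, *Abcg8* 0.27, *Nr1h3* 0.19 and *Nr1h2* 0.53. Under every other scaling and test 17 of 19 synthesis genes stayed below 0. The count of genes called, 63 with edgeR, was 440 with DESeq2, 31 with limma on quantile-normalised log2 values and 96 without a filter. DESeq2 called 4 members lower and *Tcf7l2* (−0.92, adjusted *p*=0.00274), and quantile normalisation left 6 members lower at an unadjusted *p* under 0.05, against 11. After quantile normalisation 5.66% of all genes were lower at that threshold.

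With each library left out in turn, 24 (without wild-type 8-1) to 87 (without wild-type 7-2) genes were called, 0 to 2 members were higher and 6 to 12 lower before adjustment (*p* under 0.05), and the efflux median ran from −0.17 to 0.036. Of all genes, 4.16% (without knockout 8-3) to 8.25% (without wild-type 8-1) were lower at that threshold in these fits. Genes near 0 changed sign, with ranges of −0.054 to 0.28 for *Sc5d*, −0.17 to 0.036 for *Nr1h2*, −0.067 to 0.095 for *Npc2*, −0.053 to 0.18 for *Mylip*, −0.10 to 0.18 for *Soat2*, −0.42 to 0.085 for *Fdps* and −0.024 to 0.15 for *Abcg5*. Taking the number that leads each label as a replicate block gave 39 genes called, 8 members (6 of synthesis) lower before adjustment (*p* under 0.05) in place of 11 (10 of synthesis), *Npc2* at −0.029 and *Soat2* at −0.038. In that fit 7.54% of all genes were lower before adjustment. A replicate block on the full number, possible for pairs 7-2 and 8-3 only, gave 1 member higher and 7 lower before adjustment (*p* under 0.05), an efflux median of −0.20 and *Npc2* at −0.060. There 8.99% of all genes were lower before adjustment. Over 13970 genes, libraries that share a number did not deviate together (correlations of 0.012 and −0.023), so the numbers were not read as pairs. A correlation over the synthesis genes alone is not given. In these, wild-type 7-2 was the lowest wild-type library in 15 of 19 and knockout 7-2 the highest knockout library in 16. The cause of the changes between settings was not tested.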
